A study of Mus musculus with 30 samples.

Results

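The genes described here are 41 genes of the cell cycle and of DNA replication, taken by name from a table of 50600 genes measured in 30 mouse ovaries. They comprise 12 genes that license replication origins or build the replicative helicase, 4 genes of DNA synthesis and nucleotide supply, 8 regulators of G1 and of the entry into S phase, 7 regulators of G2 and mitosis, and 10 genes of the mitotic chromosome and spindle. Before S phase, CDC6 and CDT1 load the MCM helicase onto origins, and CDC45 and the GINS complex then turn it into an active helicase. Cyclin D with CDK4 releases E2F factors that switch on S phase genes, while genes of G2 and mitosis are switched on later through promoter elements known as CHR, often beside CCAAT boxes. In the ovary the granulosa cells of growing follicles are the main dividing cells, so the transcripts of such genes are in common use as a readout of proliferation.

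All mice were C57BL/6 females. The 7 DSS mice received 3% dextran sodium sulfate, an agent that causes colitis, in the drinking water for 7 days while sexually immature, and the 8 control mice were their littermates. Ovaries were collected after sexual maturity, the left and the right ovary of every mouse as separate libraries, giving 7 DSS left, 8 control left, 7 DSS right and 8 control right ovaries. The treatment protocol in the labels names the DSS water for every sample, the controls included, and the groups used here are those of the treatment field. RNA was measured by CEL-Seq, which reads a tag near the 3′ end of each transcript, so that counts do not scale with transcript length. The deposited values are normalized counts, that is reads divided by a size factor for each library, and the libraries held between 3095386 and 8564770 reads (median 4305814). All 41 genes averaged at least 5 normalized counts over the 30 ovaries and entered every test. The mouse was the replicate throughout, and nothing in the labels gives the litter of a mouse.

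The granulosa markers Inha and Foxl2 and the oocyte factor Gdf9 were detected in every library, with lowest values of 5022, 64.0 and 116 normalized counts. In 7 libraries the oviduct glycoprotein gene Ovgp1 exceeded 5000 normalized counts, up to 66716 in the left ovary of mouse DSS_11.2. These were 3 DSS left, 1 DSS right and 3 control right ovaries, and no control left ovary, so results are also given without them.

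The sequence around the annotated start site is shown for 4 genes with an entry in the promoter table. They are the 2 most abundant replication genes and the 2 most abundant mitotic genes. Both kinds are shown because the members that moved together across ovaries belonged to both, although Pcna itself did not move with most of them. Each run is the 300 bases from 250 before to 50 after the start site in RefSeq on GRCm38.p6, written 5′ to 3′ on the gene's strand, with the matches to any of 3 motifs, on either strand, in capitals. The motifs are the E2F core GCGGGAA, the CHR core TTTGAA and the CCAAT box CCAAT. The windows are chr5:138171834-138172133 for Mcm7, a subunit of the MCM helicase, chr2:132253131-132253430 for Pcna, the sliding clamp of DNA polymerases, chr11:99024140-99024439 for Top2a, the topoisomerase that untangles replicated chromosomes, and chr7:135716330-135716629 for Mki67, the proliferation marker that coats mitotic chromosomes. All 4 lie on the minus strand.
Mcm7: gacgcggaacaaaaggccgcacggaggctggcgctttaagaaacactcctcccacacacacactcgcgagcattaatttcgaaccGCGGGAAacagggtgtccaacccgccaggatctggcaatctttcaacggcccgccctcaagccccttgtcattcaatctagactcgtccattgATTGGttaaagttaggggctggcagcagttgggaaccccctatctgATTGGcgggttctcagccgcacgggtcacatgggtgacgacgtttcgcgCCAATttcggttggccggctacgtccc
Pcna: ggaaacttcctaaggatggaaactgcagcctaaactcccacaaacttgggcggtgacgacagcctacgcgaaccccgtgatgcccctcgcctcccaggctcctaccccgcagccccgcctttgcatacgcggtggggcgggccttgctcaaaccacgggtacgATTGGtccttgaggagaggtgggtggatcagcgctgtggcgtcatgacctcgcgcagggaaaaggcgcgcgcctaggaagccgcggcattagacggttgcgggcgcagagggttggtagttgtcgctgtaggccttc
Top2a: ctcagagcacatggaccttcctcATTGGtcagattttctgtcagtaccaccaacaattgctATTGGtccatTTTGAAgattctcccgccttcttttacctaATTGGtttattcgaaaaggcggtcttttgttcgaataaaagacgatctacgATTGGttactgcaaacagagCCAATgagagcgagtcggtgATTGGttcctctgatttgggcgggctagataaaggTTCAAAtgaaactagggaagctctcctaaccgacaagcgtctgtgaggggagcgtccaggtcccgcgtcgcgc
Mki67: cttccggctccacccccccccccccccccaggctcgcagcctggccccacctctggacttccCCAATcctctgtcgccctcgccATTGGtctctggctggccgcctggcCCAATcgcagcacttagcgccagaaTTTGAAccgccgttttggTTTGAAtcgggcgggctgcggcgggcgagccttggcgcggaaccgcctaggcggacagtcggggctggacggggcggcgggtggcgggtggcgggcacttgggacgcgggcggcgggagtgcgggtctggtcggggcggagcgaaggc
The Mcm7 window held 1 E2F core and 3 CCAAT boxes, and that of Pcna held 1 CCAAT box and neither other motif. Top2a had 2 CHR cores and 6 CCAAT boxes, and Mki67 had 2 CHR cores and 3 CCAAT boxes.

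Among the 33 members with a promoter entry, 7 held the E2F core (21.2%, against 4.60% of 32851 promoters in the table), and none of those 7 was a G2 and mitosis regulator or a chromosome and spindle gene. The CHR core was present in 12 members (36.4%, against 17.9% of all promoters), of which 5 were among the 6 G2 and mitosis regulators and 5 among the 8 chromosome and spindle genes with an entry. CCAAT boxes were found in 24 members (72.7%, against 37.4% of all promoters), and 12 members held both a CCAAT box and a CHR core (36.4%, against 6.95% of all promoters). No matches overlapped each other in the 4 windows printed. These matches describe letters in the windows and do not show that a factor binds there. Aurkb, Ccna2, Ccnd1, Ccne2, Gins1, Gins2, Mcm4 and Tpx2 had no promoter entry and were not searched.

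In the deposited table, on GRCm38, Top2a is ENSMUSG00000020914.17 at chr11:98992643-99024189, Mki67 is ENSMUSG00000031004.8 at chr7:135689484-135716361, Pcna is ENSMUSG00000027342.14 at chr2:132248862-132253314 and Mcm7 is ENSMUSG00000029730.16 at chr5:138164283-138172422, all on the minus strand. The Mcm7 window printed above lies wholly within the deposited interval of Mcm7. Ccnd1 (ENSMUSG00000070348.5) lies at chr7:144929631-144939925 and E2f1 (ENSMUSG00000027490.17) at chr2:154559107-154569892, also on the minus strand. Ccne2 (ENSMUSG00000028212.16) lies at chr4:11191351-11205079, Cdt1 (ENSMUSG00000006585.3) at chr8:122568015-122573854 and Rrm2 (ENSMUSG00000020649.11) at chr12:24708241-24714446, on the plus strand. For the 38 members whose identifier and version the reference annotation also holds, the deposited interval ends 300 bases past the annotated 3′ end, so tags just downstream of a gene could be counted to it.

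Tag counts spanned a wide range between the members. Top2a averaged 2110 normalized counts over the 30 ovaries and Cdk4, the kinase partner of D cyclins, averaged 1972, followed by Mki67 with 828, the helicase activator Gins1 with 524 and Mcm7 with 507. The least abundant were Ccne1, a cyclin of S phase entry, with 9.22, the checkpoint kinase gene Bub1 with 10.8 and the mitotic kinase gene Aurkb with 11.6. The coefficient of variation between ovaries was lowest for Cdk4 at 11% (2.27% from counting alone) and highest for Ccnd1, the gene of cyclin D1, at 50.4% (14.1% from counting). For Bub1 the variation of 31.5% was close to the counting error of 30.4%, whereas Top2a varied by 21.6% with a counting error of 2.18%.

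The summed level of the 41 genes overlapped widely between the treatment groups. It ranged from 6098 to 11964 normalized counts in DSS left ovaries (median 9767), against 9318 to 11581 in control left ovaries (median 10052.5). In the right ovaries it ranged from 9223 to 10895 with DSS (median 9799), against 6680 to 12214 in controls (median 9675). Over both ovaries of a mouse the mean was 9617 ± 1074 in DSS mice and 10007 ± 1105 in control mice (SD, n = 7 and 8). The lowest sums belonged to the left ovary of mouse DSS_11.2 and the right ovary of mouse control_10.5, which had the highest Ovgp1. A lower level in a whole ovary may come from fewer cells of a type or from less RNA per cell, which cannot be told apart here.

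**Figure D1:**
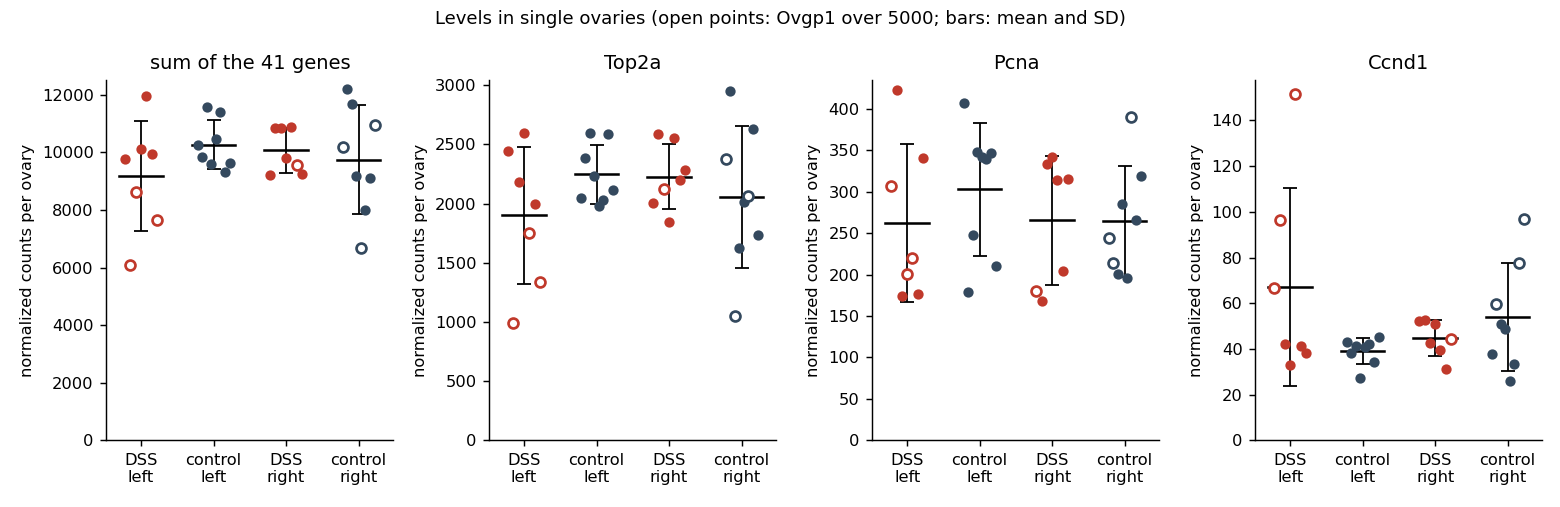
Normalized counts in single ovaries (y axis, linear, from 0) for the sum of the 41 genes and for Top2a, Pcna and Ccnd1, in DSS left, control left, DSS right and control right ovaries. Lines and bars are the mean and SD, and open points are the 7 ovaries over 5000 normalized counts of Ovgp1, which hold the lowest sum (6098) and the highest Ccnd1 value (151).

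The comparison of DSS with control mice asks whether the treatment before puberty left a change in these genes in the mature ovary. Differences are given as log2(normalized count + 1), DSS minus control, tested with limma over all 14646 genes averaging at least 5 normalized counts, with a threshold of 0.05 on the Benjamini-Hochberg adjusted p. Over both ovaries of a mouse, limma called none of the 41 genes, nor any gene in the table (0% of 14646). At an unadjusted p under 0.05 it found 3 of the 41 genes, E2f1, Cdt1 and Ccne2 (7.98% of all genes tested), while edgeR and DESeq2 on the reads called 6 and 52 genes and 0 of the 41. The median difference of the 41 genes was −0.08, with 31 below 0 and 10 above, and the median over all genes was 0.00.

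In left ovaries 38 of the 41 genes had a lower fitted level with DSS, with a median difference of −0.24 against 0.00 over all genes, and none passed the threshold. limma called 11 genes of the whole table (0.0751%), none of them a member, and 6 members had an unadjusted p under 0.05 (9.74% of all genes did). edgeR and DESeq2 called 13 and 230 genes and also 0 members. No member had groups that failed to overlap, in left ovaries, where 0.15% of all genes had, or in right ovaries, where 0.0546% had. Counts of genes lower or higher with DSS refer to the fitted level, and the group medians of a gene can run the other way. The directions shared by these genes come from the same 15 libraries and are not separate pieces of evidence.

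The licensing and helicase genes all had a lower fitted level in DSS left ovaries, with a median difference of −0.26 over the 12. Cdt1, which loads the MCM helicase onto origins, ranged from 17.6 to 38.6 normalized counts in DSS left ovaries (median 24.5), against 25.2 to 55.7 in control left ovaries (median 34.4). The groups overlapped, with 6 of 7 DSS left ovaries below the control median, and the difference of −0.56 ± 0.19 (SE) had an adjusted p of 0.401 by limma. In the right ovaries Cdt1 ranged from 20.9 to 37.0 with DSS (median 30.2), against 19.9 to 58.7 in controls (median 36.7), a difference of −0.28. Mcm6, a subunit of the helicase, ranged from 165 to 273 in DSS left ovaries (median 213), against 230 to 306 in control left ovaries (median 249), with a difference of −0.27 ± 0.10 (SE) and an adjusted p of 0.438 by limma. Here too the groups overlapped. Gins2, a subunit of the GINS complex, ranged from 27.7 to 48.1 in DSS left ovaries (median 30.7), against 39.6 to 53.1 in control left ovaries (median 43.6), and its difference of −0.35 ± 0.14 (SE) had an adjusted p of 0.455. The most abundant gene of this role, Gins1, had a median of 525 in DSS left and 505 in control left ovaries, with a difference of −0.06. In the right ovaries 8 of the 12 genes were higher with DSS, with a median difference of 0.04.

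The 4 genes of DNA synthesis and nucleotide supply had a lower fitted level in DSS left ovaries, with a median difference of −0.24, and none passed the test. Tyms, the thymidylate synthase gene, ranged from 61.9 to 99.3 normalized counts in DSS left ovaries (median 69.4), against 78.9 to 119 in control left ovaries (median 83.9). The difference was −0.25 ± 0.12 (SE) with an adjusted p of 0.508 by limma, and the groups overlapped. Pcna ranged from 174 to 422 in DSS left ovaries (median 219.6), against 179 to 407 in control left ovaries (median 341). In the right ovaries it ranged from 168 to 342 with DSS (median 314), against 195 to 390 in controls (median 255). The 4 ranges overlapped widely, and the differences were −0.23 ± 0.20 (SE) on the left and −0.01 on the right. Rrm1 and Rrm2, which encode the subunits of ribonucleotide reductase, differed by −0.08 and −0.25 on the left and by 0.00 and 0.05 on the right.

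None of the 8 regulators of G1 and S phase entry was called on either side. Their median difference in left ovaries was −0.09, with 6 of 8 lower with DSS, and it was −0.02 in right ovaries, with 5 of 8 lower. E2f1, a transcription factor of S phase genes, ranged from 24.5 to 103 normalized counts in DSS left ovaries (median 60.8), against 71.6 to 125 in control left ovaries (median 90.6). The groups overlapped with 6 of 7 DSS left ovaries below the control median, and the difference of −0.66 ± 0.22 (SE) had an adjusted p of 0.393 by limma. Over both ovaries E2f1 averaged 75.7 ± 13.8 in DSS mice and 94.8 ± 13.3 in control mice (SD, n = 7 and 8), a difference of −0.33 ± 0.12 (SE) with an adjusted p of 0.507. Ccne2, which like Ccne1 encodes a cyclin that activates CDK2 at S phase entry, ranged from 27.7 to 97.2 in DSS left ovaries (median 61.7), against 55.4 to 114 in control left ovaries (median 89.4). The difference on the left was −0.60 ± 0.20 (SE, adjusted p = 0.393 by limma) with 6 of 7 DSS left ovaries below the control median, and the difference on the right was 0.03. Reads of Ccne2 may be mixed with those of Ints8, which overlaps it on the other strand and averaged 267 normalized counts, against 68.8 for Ccne2. Cdk4 had a median of 1888 in DSS left ovaries and 2085 in control left ovaries, with a difference of −0.16 ± 0.10 (SE).

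Ccnd1 had the opposite sign. It ranged from 32.9 to 151 normalized counts in DSS left ovaries (median 42.4), against 27.2 to 45.2 in control left ovaries (median 40.965). The medians were close, and 3 DSS left ovaries, those with more than 5000 normalized counts of Ovgp1, lay above every control left ovary. The difference of 0.57 ± 0.26 (SE) had an adjusted p of 0.494 by limma, and it was −0.01 without the Ovgp1-rich ovaries. In the right ovaries Ccnd1 ranged from 31.4 to 52.6 with DSS (median 44.3), against 26.2 to 96.9 in controls (median 49.9).

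The 7 regulators of G2 and mitosis all had a lower fitted level in DSS left ovaries (median difference −0.28). In DSS right ovaries 6 of 7 had a higher one (median 0.10), with no call on either side. For Ccna2, 4 of 7 DSS left ovaries lay above the control median. Ccnb1, the gene of cyclin B1, ranged from 78.9 to 243 normalized counts in DSS left ovaries (median 192), against 189 to 227 in control left ovaries (median 205). The difference was −0.31 ± 0.17 (SE) with an adjusted p of 0.568 by limma, and the DSS left ovaries lay on both sides of the control range. Cdk1, its kinase partner, ranged from 61.8 to 175 in DSS left ovaries (median 138), against 116 to 183 in control left ovaries (median 153), and from 138 to 210.1 in DSS right ovaries (median 159), against 90.9 to 211 in control right ovaries (median 141). Both pairs of groups overlapped, with differences of −0.25 on the left and 0.20 on the right. Ccnb2, the gene of cyclin B2, had a median of 54.7 in DSS left and 56.6 in control left ovaries, and of 64.5 in DSS right and 54.9 in control right ovaries.

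Of the 10 chromosome and spindle genes, 9 had a lower fitted level in DSS left ovaries (median difference −0.15). All 10 had a higher one in DSS right ovaries (median difference 0.13), again with no call. Top2a ranged from 995 to 2596 normalized counts in DSS left ovaries (median 1995), against 1981 to 2593 in control left ovaries (median 2175). It ranged from 1845 to 2591 in DSS right ovaries (median 2201), against 1049 to 2949 in control right ovaries (median 2038). On each side the lowest value belonged to an Ovgp1-rich ovary, and the differences were −0.30 ± 0.16 (SE, adjusted p = 0.550 by limma) on the left and 0.17 ± 0.16 (SE) on the right. Cenpa, the histone variant of centromeres, had a median of 142 in DSS left and 157 in control left ovaries, and of 167 in DSS right and 149.9 in control right ovaries. Kif11, a spindle motor gene, was the member with the smallest p in right ovaries. It ranged from 41.3 to 76.5 with DSS (median 58.7), against 29.9 to 61.5 in controls (median 49.0), a difference of 0.34 ± 0.16 (SE) with an adjusted p of 0.724 by limma.

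In the right ovaries limma called 1 gene of the whole table (0.00683%) and none of the 41 genes, and 1 member had an unadjusted p under 0.05 (6.88% of all genes). edgeR and DESeq2 called 2 and 19 genes and 0 members there. Mki67 averaged 828 ± 108 normalized counts in DSS mice and 828 ± 109 in control mice (SD, n = 7 and 8). Its difference over both ovaries was 0.00, with a 95% interval of −0.19 to 0.19, on the log2 scale. The left effect of DSS minus the right effect was below 0 for 38 of the 41 genes and above 0 for 3. Its median was −0.28 over the 41 genes and 0.00 over all genes. A test of this difference between the left and the right effect called 0 genes (0%) and 0 members by limma. At an unadjusted p under 0.05 it found 7 members (8.52% of all genes), of which Ccne2 (−0.63 ± 0.25, SE), Cenpa (−0.51 ± 0.20) and Ccnb2 (−0.53 ± 0.21) had adjusted p-values of 0.542, 0.542 and 0.546.

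**Figure D2:**
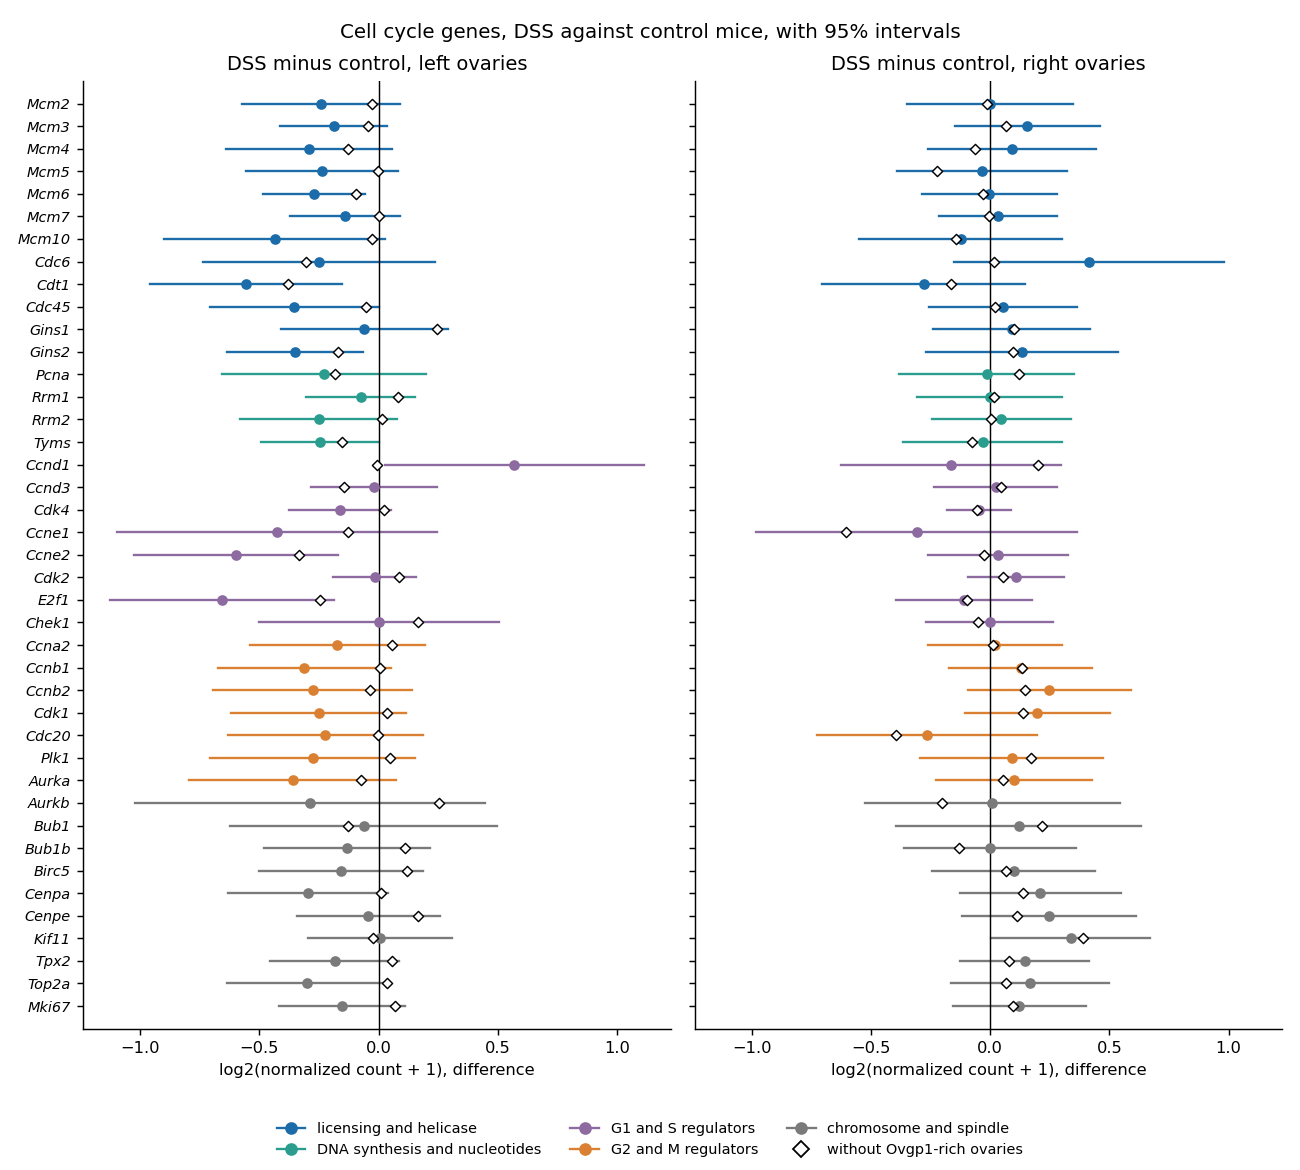
DSS minus control difference of each of the 41 genes on the log2(normalized count + 1) scale (x axis) with its 95% interval, in left ovaries and in right ovaries, coloured by role. Open diamonds are the same differences without the 7 Ovgp1-rich ovaries. Their median over the 41 genes is 0.00 on the left, where only DSS ovaries were removed, against −0.24 with all ovaries.

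The left difference was smaller without the Ovgp1-rich ovaries. Without them the median left difference of the 41 genes was 0.00, with 22 genes lower and 19 higher, and Top2a differed by 0.04, E2f1 by −0.25, Ccne2 by −0.34 and Cdt1 by −0.38. On the left this removal took out only DSS ovaries (DSS_10.4_left, DSS_11.2_left and DSS_11.1_left) and no control ovary. Their summed levels of the 41 genes were 7658, 6098 and 8631 normalized counts, below the lowest control left ovary (9318). The smaller left difference therefore cannot be told apart from the loss of low DSS ovaries. Leaving out mouse DSS_11.2 alone gave a median of −0.13 on the left, with 32 genes lower and 9 higher. On the right the median was 0.02 without the Ovgp1-rich ovaries, 0.00 without mouse control_10.6 and −0.02, with 22 genes lower, without mouse control_10.5. Over both ovaries the split was 22 lower and 19 higher without mouse DSS_11.2, 25 and 16 without mouse control_15.3, and 36 and 5 without mouse DSS_13.2.

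Fitted levels of markers of other cells also differed between the same groups, with no call. All 9 oviduct genes of a list were higher in DSS left ovaries (median difference 2.93), where their sum ranged from 355 to 68623 normalized counts, against 154 to 512 in control left ovaries. The 15 granulosa genes were all lower in DSS left ovaries (median −0.36), with sums of 11846 to 27765 in DSS left and 19012 to 30353 in control left ovaries, and 12 of the 15 were higher in DSS right ovaries (median 0.17). All 8 keratinocyte genes tested were lower with DSS in left ovaries (median −2.01) and in right ovaries (median −1.13). Of 18 oocyte genes 17 were lower in DSS left ovaries (median −0.28), and all 7 adipose genes were higher there (median 0.51). The part of these lists in the differences of the cell cycle genes was not tested. The values without the Ovgp1-rich ovaries do not settle it, since on the left only DSS ovaries were removed. None of these genes passed the limma threshold.

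The 7 Ovgp1-rich ovaries were not alike in the level of the 41 genes. The summed level was 6098, 6680 and 7658 normalized counts in DSS_11.2_left, control_10.5_right and DSS_10.4_left, and 10955 and 10173 in control_13.4_right and control_16.9_right, above the median of the other 23 ovaries. The median of 38 of the 41 genes was lower in these 7 ovaries than in the other 23, and the summed level had a median of 8631 normalized counts in the 7 and 9948 in the 23. The exceptions were Ccnd1 (medians of 77.5 normalized counts in the 7 and 41.1 in the 23), Ccnd3, the gene of cyclin D3 (224 and 216), and Kif11 (58.2 and 49.7). The left ovary of mouse DSS_11.2 was the lowest of all 30 ovaries for 20 members, and the right ovary of mouse control_10.5 for 11. The granulosa gene Inha had a median of 9352 in the Ovgp1-rich ovaries and 12547 in the others. In control_13.4_right (12664) and DSS_11.1_right (12565) it lay above the median of the others. Its relation to the summed level of the 41 genes was not tested.

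Genes of the same processes that are not among the 41 were also mostly lower in DSS left ovaries, with no call by limma in any list. Of 49 other mitotic genes 43 were lower with DSS (median −0.20), of 43 other replication genes 32 (median −0.10) and of 17 other G1 and E2F genes 15 (median −0.19). Of 18 cell cycle inhibitor genes 9 were lower and 9 higher (median −0.01). In right ovaries 37 of the 49 other mitotic genes were higher with DSS (median 0.15).

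Left and right ovaries of the same mouse differed in many genes, but in none of the 41 at the threshold. Paired within mice, limma called 1488 genes (10.2%), 668 higher (4.56%) and 820 lower (5.6%) in left ovaries, and 0 of the 41 members, while edgeR and DESeq2 called 1475 and 1151 genes and also 0 members. At an unadjusted p under 0.05 it found 2 members, Ccnd3 and Mki67 (23.7% of all genes). This comparison pools DSS and control mice, and the left effect of DSS was below the right effect for 38 of the 41 genes. Within DSS mice Top2a differed by −0.29 between left and right and Mki67 by −0.38. Within control mice Top2a differed by 0.18 and Mki67 by −0.10. In the pool the median left minus right difference of the 41 genes was 0.01, with 23 above 0 and 18 below. The split was near even there, which does not show that it was even within each treatment. Over leaving out each mouse this median lay between −0.03 and 0.05, and it was below 0 without mouse control_10.5, control_10.6, control_11.4 or control_13.5, as under quantile normalization, where 21 genes were below 0. Library numbers in the labels are odd for left and even for right ovaries, so a processing order that follows the side cannot be told apart from the side.

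Ccnd3 ranged from 191 to 332 normalized counts in left ovaries (median 236), against 142 to 271 in right ovaries (median 206). The difference was 0.25 ± 0.09 (SE) with an adjusted p of 0.082 by limma, and the gene passed the threshold when mouse control_10.5 was left out. Mki67 ranged from 474 to 1068 in left ovaries (median 737), against 553 to 1189 in right ovaries (median 853). It was lower on the left in 11 of 15 mice, with a difference of −0.23 ± 0.10 (SE) and an adjusted p of 0.140 by limma. Cdc45, the partner of the MCM helicase, had a difference of 0.22 (adjusted p = 0.252 by limma), and of 0.43 (adjusted p = 0.0264) without the Ovgp1-rich ovaries, where it was the only member called and 733 genes were called in all.

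Lists of other cell cycle genes were read against the 10.2% of all genes called between the sides, 4.56% higher and 5.6% lower. Among 18 inhibitors of the cell cycle, 14 had a higher and 4 a lower fitted level in left ovaries (median 0.14). limma called 3 of the 18 higher and 2 lower on the left, so the 2 lower genes described next run against most of the list. Cdkn1b, an inhibitor of cyclin-dependent kinases, ranged from 1198 to 3024 normalized counts in left ovaries (median 2527), against 2411 to 5318 in right ovaries (median 3923). It was lower on the left in 13 of 15 mice, with a difference of −0.68 ± 0.11 (SE, adjusted p = 0.00075 by limma), and of −0.65 (adjusted p = 0.00027) without the Ovgp1-rich ovaries. Rbl2, a pocket protein gene that restrains E2F targets, ranged from 377 to 483 in left ovaries (median 429), against 443 to 585 in right ovaries (median 516), and was lower on the left in 14 of 15 mice, with a difference of −0.24 ± 0.04 (SE, adjusted p = 0.00061 by limma). Trp53, the gene of p53, was higher on the left by 0.24 ± 0.06 (SE, adjusted p = 0.0139) in 14 of 15 mice.

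Among 17 other G1 and E2F genes 1 was called, E2f3, which was higher on the left by 0.28 ± 0.07 (SE, adjusted p = 0.0142 by limma) in 14 of 15 mice. Counted in both directions together, the calls in the G1 and E2F, mitotic and replication lists were near or below the 10.2% over all genes. Of 49 other mitotic genes 5 were called lower on the left and none higher, against 5.6% of all genes called lower and 4.56% higher. In this list 35 of the 49 genes had a lower fitted level on the left and 14 a higher one (median −0.09). Aspm, which acts at the spindle poles, ranged from 130.1 to 300.1 normalized counts in left ovaries (median 212), against 149 to 391 in right ovaries (median 291), and was lower on the left in 12 of 15 mice, with a difference of −0.41 ± 0.09 (SE, adjusted p = 0.0042 by limma). Spc25, a kinetochore gene, had a difference of −0.46 ± 0.13 (SE, adjusted p = 0.0222), a call lost without the Ovgp1-rich ovaries (adjusted p = 0.143). Of 43 other replication genes 2 were lower on the left, Orc2 (−0.24, adjusted p = 0.0157) and Pola1 (−0.25, adjusted p = 0.0415), and the call of Orc2 was lost without the Ovgp1-rich ovaries (adjusted p = 0.119).

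Across the 30 ovaries most members varied together. Pearson's r between log2 values was above 0 for 724 of the 820 pairs of members, with a median of 0.51, against a median of 0.00 for pairs of all genes tested. It exceeded 0.5 for 415 pairs (50.6%, against 1.59% for pairs of all genes). The first principal component held 54.1% of the variance of the 41 genes. These are descriptions with no test, since the ovaries of a mouse, the libraries and the scaling are shared by all pairs. In the 23 ovaries with little Ovgp1 the median r was 0.39, with 34.0% of pairs above 0.5 and 44.2% of the variance on the first component. Without the left ovary of mouse DSS_11.2 the median was 0.46.

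The likeness followed the roles in part. Pairs within the G2 and mitosis regulators had a median r of 0.65, with 19 of 21 pairs above 0.5, pairs within the licensing genes 0.59 and pairs within the chromosome and spindle genes 0.58. Licensing genes paired with G2 and mitosis regulators had a median of 0.57, close to that within each role. Pairs within the G1 and S phase regulators had a median of 0.15. The closest pairs were Ccnb1 with Cdk1 (0.90), Top2a with Tpx2, a spindle assembly factor gene (0.90), Ccna2, the gene of cyclin A2, with Birc5, the gene of survivin (0.89), and Cenpa with Top2a (0.89). Rrm2 had the highest median r with the other 40 members, 0.74, followed by Top2a with 0.72 and Mcm6 with 0.69, and Mki67 had 0.60. Chek1, the gene of a replication checkpoint kinase, had 0.11, and Bub1, whose spread was close to counting error, had 0.18.

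**Figure D3:**
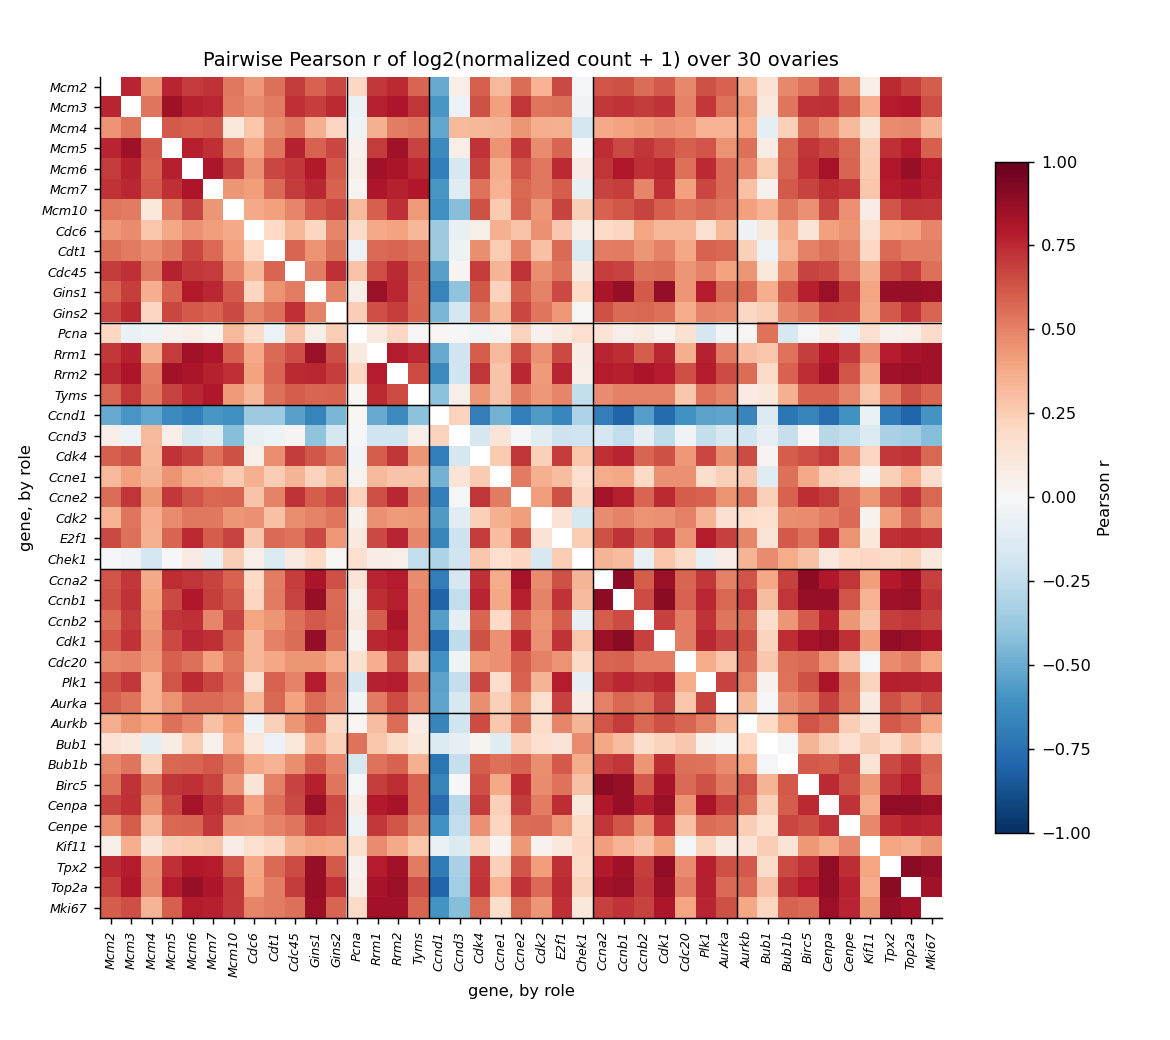
Pearson's r between log2(normalized count + 1) values of every pair of the 41 genes over the 30 ovaries, as a heat map with the genes ordered by role on both axes. Ccnd1 stands out with negative r to most genes (median −0.59), and Pcna and Ccnd3 have medians of 0.06 and −0.16.

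Ccnd1 ran against the rest. Its r was above 0 with 2 of the other 40 members, the median was −0.59, and the lowest pair of all 820 was Ccnd1 with Ccnb1 (−0.80). In the 23 ovaries with little Ovgp1 the median was −0.36, with 5 of 40 above 0, so the sign was the same there and the size smaller. The overlapping gene Oraov1 lies on the other strand with a mean of 38.5 normalized counts, and the strand setting of the counting is not given in the sources used here, so reads of Ccnd1 and Oraov1 may be mixed. The same limit holds for Mcm7, Cdc45, Gins2, Ccnd3, Cdk4, Ccne2, Cdk2, Ccna2, Cdc20 and Aurka, which also overlap a detected gene on the other strand. That gene averaged more than the member for Cdc45 (Ufd1l, 256 against 56.6 normalized counts) and Ccne2 (Ints8, 267 against 68.8). It also did for Cdc20 (Elovl1, 63.5 against 17.6) and Aurka (Fam210b, 43.1 against 38.9). For the others it averaged less than the member, down to 1.08 against 249 for Cdk2.

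Pcna was the member whose left and right values were most alike within mice, with Pearson's r = 0.82 and Spearman's rho = 0.79 over 15 mice (permutation p = 0.00058, adjusted p = 0.108 over 14646 genes). Without the 2 mice farthest from the median r was 0.76, and with the group means removed it was 0.84. The adjusted p misses the threshold, and none of the 41 genes was called among the 46 genes (0.314%) with alike sides. Pcna was the only member with an unadjusted permutation p under 0.05 (9.33% of all genes, 8.41% with a positive r). The median r between sides was 0.07 over the 41 genes and 0.12 over all genes, and the next highest member was Cdt1 with 0.50. Top2a had 0.04 and Mki67 −0.13.

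The mice are named in the labels by a pair of numbers joined by a point, and the meaning of the number before the point is not given there. Mean Pcna of both ovaries was 292 to 333 normalized counts in the 4 mice numbered 10, 190.3 to 314 in the 3 numbered 11 and 307 to 399 in the 3 numbered 13. It was 189.8 to 222 in the 3 mice numbered 15 and 171 to 212 in the 2 numbered 16. DSS and control mice were present under every number. Mki67 did not separate this way, at 645 to 991 in the mice numbered 10 and 807 to 1025 in those numbered 15.

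**Figure D4:**
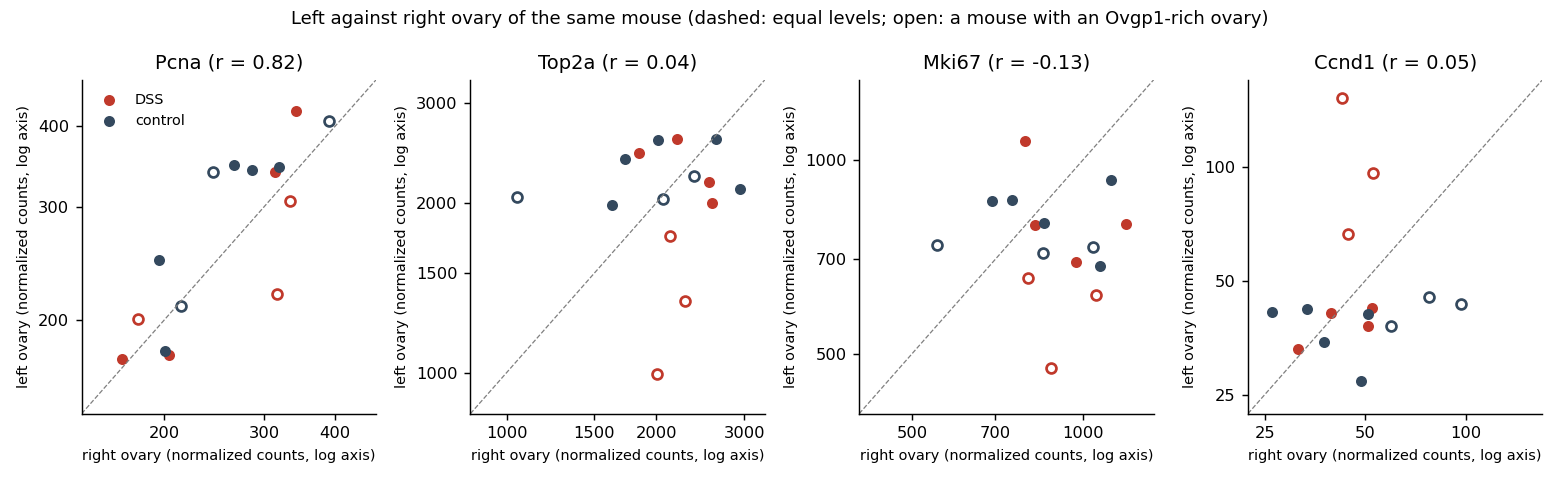
Left ovary (y axis) against right ovary (x axis) of the same 15 mice, normalized counts on log axes, for Pcna, Top2a, Mki67 and Ccnd1, with DSS mice in red and control mice in dark blue. Open points are mice with an Ovgp1-rich ovary and the dashed line marks equal levels. Pcna follows the line (r = 0.82), and Top2a and Mki67 do not (r = 0.04 and −0.13).

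Co-variation was also tested gene by gene against Mki67, which leaves 40 members and 14645 genes, with 100000 permutations of the mice for each gene. Over mouse means, 0 genes (0%) and 0 members passed the adjusted threshold, and the smallest adjusted p of a member was 0.0563. At an unadjusted permutation p under 0.05 there were 31 of the 40 members (14.8% of all genes), 30 of them with a positive r (6.11% of all genes). The median r of the members was 0.64, against −0.01 over all genes. Cenpa (0.88), Top2a (0.87) and Rrm1 (0.87) were the members closest to Mki67, and outside the 41 the mitotic genes Ttk and Aspm had 0.89 and 0.88.

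Within mice, the left minus right difference of Mki67 went with that of many members. Over 15 mice, 470 genes passed the adjusted threshold (3.21%), 302 of them with a positive r (2.06%) and 168 with a negative r (1.15%), and 18 of the 40 members passed it, all with a positive r. The members' median r was 0.72, against 0.00 over all genes, and 34 had an unadjusted permutation p under 0.05 (19.3% of all genes), 33 of them with a positive r (9.56%). By role these were 5 of 12 licensing and helicase genes, 3 of 4 synthesis genes, 1 of 8 G1 and S phase regulators, 4 of 7 G2 and mitosis regulators and 5 of 9 chromosome and spindle genes.

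Rrm2 had r = 0.95 and rho = 0.96 (adjusted permutation p = 0.0064, which rests on the smallest p that the permutations can give), and 0.93 without the 2 mice farthest from the median, mouse DSS_13.2 and mouse control_10.5. Mcm7 had r = 0.92 and rho = 0.88 (adjusted p = 0.0064), and 0.90 without those mice. Mcm6 (0.91), Tpx2 (0.90), Ccne2 (0.89) and Top2a (0.89) came next, and Top2a had 0.89 without those mice as well. Tyms passed with 0.77 and had 0.68 without them, where it did not pass. Ccnd1 had r = −0.69 and rho = −0.70 (adjusted p = 0.074), Ccnd3 had −0.39, Chek1 −0.02 and Bub1 0.12. Pcna had 0.72 (adjusted p = 0.0634), and its mouse means had r = 0.14 with those of Mki67, with no test of the difference between these values.

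The number of members passing was 10 of 40 without the 2 farthest mice and 12 of 40 with the group means removed. It was 0 in the 9 mice without an Ovgp1-rich ovary, where no gene of the table passed, the members' median r was 0.69 and 22 members had an unadjusted permutation p under 0.05. Rrm2 and Mcm7 had r = 0.94 and 0.92 in those 9 mice.

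**Figure D5:**
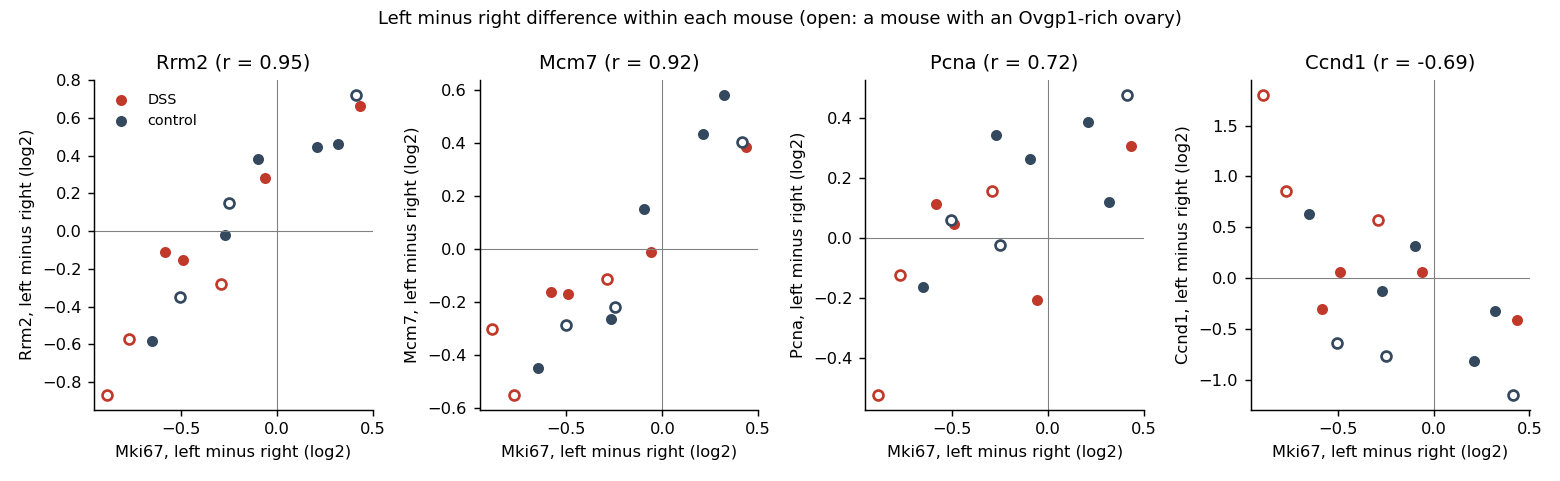
Left minus right difference of Rrm2, Mcm7, Pcna and Ccnd1 (y axes) against that of Mki67 (x axis), in log2(normalized count + 1), for 7 DSS mice in red and 8 control mice in dark blue, with open points for mice that have an Ovgp1-rich ovary. Rrm2 and Mcm7 increase along with Mki67 (r = 0.95 and 0.92), Pcna does so less closely (0.72), and Ccnd1 runs the other way (−0.69).

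The same measure was taken for lists of genes outside the 41, where a correlation between whole ovaries does not show which cells hold a transcript. Of 15 granulosa markers 9 passed with a positive r to the left minus right difference of Mki67 (median 0.82), among them the gap junction gene Gja1 (0.93) and Inha (0.88). Other mitotic genes passed in 22 of 49 cases (median 0.72) and other replication genes in 9 of 43 (median 0.51). None of 18 inhibitors (median −0.05), of 9 luteal genes (median 0.08) and of 9 oviduct genes (median −0.61) passed. Of 18 oocyte genes 1 passed (median 0.58), and of 7 theca and interstitial genes 1 passed (median 0.27). By r alone the 4 genes closest to Mki67 in this measure were Rrm2, the nucleolar gene Npm1 (0.94), Spin2c (0.93) and Zmym3 (0.93).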

How the data were processed

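Ovary RNA was extracted with TRIzol and prepared by CEL-Seq, with 3 barcoded primers pooled per sample, per the labels' protocols. The submitters' processing notes name TopHat, HTSeq, DESeq2 and the build GRCm38.p5. The deposited values are a normalized signal, read counts divided by a size factor per library. Whole reads were recovered from these steps (99.9% to 100% of values whole within 0.0051), and edgeR 4.0.16 and DESeq2 1.42.0 were run on them as alternatives. The step, the value of 1 read, ran from 0.528 to 1.33 normalized counts, so low genes carry coarse values and counting errors cover reads, not molecules.

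Differences were tested with limma 3.58.1 (R 4.3.3, trend) on log2 of the signal with a pseudocount of 1, over 14646 genes with a mean of at least 5, adjusted by Benjamini-Hochberg at 0.05. DSS and control were compared on the mean of both ovaries of a mouse and within each side; left and right were paired by mouse. These are 5 comparisons. Correlations with permutation p-values form 3 families (left against right, and co-variation with Mki67 over mouse means and over left minus right differences), with 100000 permutations each, seeded; the smallest p they can give is 1e-05. The number before the point in the mouse names, whose meaning the labels do not give, was used as a block only in an alternative fit. Python 3.11.15, numpy 2.4.6, pandas 2.3.3, scipy 1.17.1 and matplotlib 3.10.9 were used.

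In simulated data of the same size, limma recovered 2%, 40%, 66% and 92% of genes changed 1.25-fold, 1.5-fold, 2-fold and 4-fold in the left ovary comparison, and 28%, 54%, 84% and 98% in the comparison of left with right.

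The members and lists were chosen with earlier results of these data known. Values are given for the member with the smallest p and the most abundant member of each role, for members past a threshold, and for Mki67, Top2a, Pcna, Ccnd1, Cdk1 and Ccnb1. From each other list, counts and the 2 to 4 genes with the smallest p are given. Alternatives on Ovgp1 in the correlations, TMM scaling of the pairwise correlations and the pairwise values without the left ovary of mouse DSS_11.2 were added after seeing the data.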

Additional observations from a re-analysis of the deposited data

Results flagged for a closer look

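In 4 of 64 group and gene combinations tested, 1 ovary stood apart from the rest of its group, by a gap to the next value that was large against the range of the group. Chance marks about 1 in 20 such groups, so this number is near what chance gives. Tyms was 118.59 normalized counts in the left ovary of mouse control_13.5, against 92.2 in the next control left ovary. In the right ovary of mouse DSS_16.3, E2f1 was 120.08 and Cdk1 210.14, against 91.3 and 160.4 in the next DSS right ovaries. Cenpa was 212.19 in the left ovary of mouse control_15.3, against 168 in the next control left ovary.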

How the results depend on the processing

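No member passed the threshold in the DSS comparisons under any alternative run, and the counts over all genes were small and uneven. Without the Ovgp1-rich ovaries limma called 10 genes over both ovaries, 0 on the left, 0 on the right and 1 for the difference of the effects. For left against right it called 733 of 14646 genes and 1 of the 41 members, Cdc45. On the reads, edgeR called 6 genes over both ovaries and 2 on the right, and DESeq2 called 52, 230 (left) and 19 (right). On the right 2 genes were called with a mean of at least 1 and 3 with at least 20, with TMM and with quantile normalization, which gave 1 for the difference of the effects. The replicate block by the number before the point, whose meaning is not given, called 3, 5 and 3 genes over both ovaries, left and right, and gave median member differences of -0.02, -0.19 and 0.09. Leaving out each mouse in turn gave 0 to 13 genes over both ovaries, 6 to 21 on the left (7 without mouse control_10.6 or control_15.4), 0 to 4 on the right, 0 to 2 for the difference of the effects and 1183 to 1569 for left against right, with 0 to 1 members. Ccnd1 reversed without the Ovgp1-rich ovaries, to -0.005727 on the left and -0.086176 for the difference of the effects. Genes with alike sides numbered 18 with group means removed, 3 without the 2 farthest mice and 0 in the 9 mice without an Ovgp1-rich ovary. For the left minus right difference of Mki67, 727 genes passed with TMM, 147 with group means removed, 56 without the 2 farthest mice (10 members) and 0 in the 9 mice (0 members). The median pairwise r was 0.392 in the 23 ovaries. The cause of these shifts was not tested, except that fewer mice were used where mice were left out. Depth limits Ccne1, Bub1, Aurkb, Cdc6 and Cdc20, which averaged under 20 normalized counts.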
